A study of Mus musculus with 24 samples.

Results

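The 43 genes described here encode RNA polymerase I, its initiation factors and proteins that process and assemble ribosomes in the nucleolus. They form a list of names that uses no threshold on a measured value, but the list was drawn up with earlier results of these data known. All 43 were among the 23420 genes measured and among the 11885 genes tested, so none was lost to the filter on low values. RNA was sequenced from spleen B cells of the mouse strain Balb/c, in 24 libraries that form 8 groups of 3. The groups are germinal center (GC) B cells of an early, a peak and a late stage, B cells labelled as activated in vivo, B cells activated in vitro for 4 h, 12 h or 24 h, and naive B cells. All are cells of 1 strain and 1 organ, bead purified, antibody stained and sorted, and the labels give no genotype other than the strain. The labels name no stimulus, immunogen, day after immunization, animal, culture, age or sex, so a p-value here reflects no more than how much the libraries vary, which may be technical. The title and design text present the series as a profile of freshly isolated GC B cells, and the naive, in vitro and in vivo activated groups serve as points of comparison.

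Ribosomes are built in the nucleolus. RNA polymerase I copies the ribosomal DNA into a long precursor RNA, small nucleolar ribonucleoproteins (snoRNPs) guide the methylation and pseudouridylation of that precursor, and a large assembly called the small subunit processome folds and cuts its first part. Other factors assemble the 60S subunit or finish the 40S subunit on the way to the cytoplasm. A resting lymphocyte is small and makes few ribosomes, and enlargement of the nucleolus is a classical sign of lymphocyte activation. The transcription factor MYC is known to drive many genes of this pathway, in part through the E-box CACGTG in their promoters, and ETS factors bind sequences with the core GGAA.

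The promoters of the members are shown first, since most members moved together and E-box and ETS motifs are known features of promoters of this pathway. RefSeq windows on GRCm38.p6, which run from 250 bases before to 50 bases after a start site, were found for 37 of the 43 members, as 45 windows of 300 bases. The E-box CACGTG, which reads the same on both strands, lay in 8 of the 45 member windows (17.8%), in 7.15% of the windows of all genes and in 10.2% of the windows of genes tested here. The ETS motif CCGGAA, searched on both strands, lay in 16 member windows (35.6%), against 14.9% of all windows and 27.8% of the windows of tested genes. No test was made of these shares, and a match is no evidence of binding. Genes with an E-box were Nop2, Ltv1, Utp20, Pes1, Tsr1, Utp18, Rrn3 and Wdr43. In 32 of the 45 windows the start site lay within 100 bases of the GENCODE gene start. Printed here are the 150 bases before the start of 5 members, with every E-box and every ETS motif of either strand that lies wholly within them in capitals. An ETS motif of Rrn3 that begins at base -4 runs past the printed end and is left in lower case. Rrn3 (chr16:13780549-13780698, + strand), Nop2 (chr6:125131733-125131882, + strand) and Utp18 (chr11:93885767-93885916, - strand) are shown because they carry an E-box. Nop16 (chr13:54590075-54590224, - strand) is shown as the member with the largest difference at 4 h, and Polr1b (chr2:129100846-129100995, + strand) as the member with the largest fall in late GC cells. No motif overlapped another.
Rrn3: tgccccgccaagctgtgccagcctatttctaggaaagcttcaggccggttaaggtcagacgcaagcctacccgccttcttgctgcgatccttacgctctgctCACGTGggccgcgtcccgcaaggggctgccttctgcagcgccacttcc
Nop2: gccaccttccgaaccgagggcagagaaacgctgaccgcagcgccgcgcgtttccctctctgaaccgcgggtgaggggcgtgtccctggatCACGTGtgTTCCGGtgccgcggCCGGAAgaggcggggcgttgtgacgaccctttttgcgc
Utp18: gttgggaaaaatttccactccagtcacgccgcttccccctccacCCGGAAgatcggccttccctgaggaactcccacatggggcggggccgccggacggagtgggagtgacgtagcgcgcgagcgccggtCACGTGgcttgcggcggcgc
Nop16: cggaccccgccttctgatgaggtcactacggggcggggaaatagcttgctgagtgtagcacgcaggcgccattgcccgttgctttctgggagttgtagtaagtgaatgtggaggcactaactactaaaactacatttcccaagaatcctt
Polr1b: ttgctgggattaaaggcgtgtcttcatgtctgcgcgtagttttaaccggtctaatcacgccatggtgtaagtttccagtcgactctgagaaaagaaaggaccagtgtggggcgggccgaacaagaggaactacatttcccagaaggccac
Nop2 carried 1 E-box and an ETS motif on each strand, and Utp18 carried 1 of each motif, while the stretches of Nop16 and Polr1b held neither CACGTG nor CCGGAA. The shorter core GGAA was not searched for and does occur in both of those stretches.

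Values are given in log2 as deposited. Their scale resembles CPM (read counts scaled to a fixed total), since the linear values of a library sum to between 990678 and 1008194. Sequencing depth is unknown, and no detection limit is given. A value is a share of a library's RNA: fewer cells of a type and less RNA per cell cannot be told apart, and RNA content per cell was not measured. The labels were checked against markers. The 6 GC markers used here summed to 1098 to 1708 on the linear scale in the GC libraries, and to 36.1 to 140.5 in all other libraries. The 5 B-cell markers used here were present in every library, with sums of 4018 to 5814 in GC, in vivo activated and naive libraries and 2193 to 2528 after in vitro activation. The Y-linked gene Ddx3y was at the floor (under -5 log2) in the GC and in vivo activated groups and averaged 4.77 to 5.75 log2 in the naive and in vitro groups. Eif2s3y and Kdm5d, also Y-linked, were at the floor in the same groups and averaged 4.05 to 5.49 log2 in the others. The X-linked gene Xist averaged 6.69 to 8.43 log2 over all 8 groups. The split of the Y-linked genes follows the comparisons of GC or in vivo activated cells with naive or in vitro cells. Its part in those comparisons cannot be separated from the groups compared and was not tested.

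All 43 members were higher after in vitro activation than in naive cells, at each of the 3 times. A gene is called at an adjusted p under 0.05 in limma, fitted over all 24 libraries and adjusted over the 11885 genes by Benjamini-Hochberg. At 4 h, 43 of 43 members rose and 0 fell, while 38.9% of all tested genes rose and 39.1% fell, and the members' median log2 fold change was 1.97 against -0.01 for all tested genes. At 12 h, 43 rose and 0 fell, with a median of 2.06, where 41.7% of all genes rose and 39.2% fell with a median of 0.03. At 24 h, 43 rose and 0 fell, with a median of 1.86, where 42.2% of all genes rose and 42.5% fell with a median of -0.01. These calls held without any 1 library, and the 3 comparisons share the naive libraries. At least 2-fold differences were found for 39 members at 4 h, 38 at 12 h and 37 at 24 h, where 16.2%, 19.5% and 22.9% of all tested genes were that much higher. At least 4-fold differences were found for 21, 24 and 18 members at those times, and for 4.86%, 5.59% and 8.78% of all tested genes. For 41 of 43 members, all 9 in vitro libraries lay above all 15 other libraries, as they did for 11.6% of all tested genes. Over the same comparisons the sum of the B-cell markers was 2193 to 2370.0 at 4 h, 2439 to 2528 at 12 h and 2315 to 2405 at 24 h, against 5528 to 5814 in naive libraries. Macrophage and monocyte markers summed to 8.99 to 18.4 over the in vitro libraries, against 64.3 to 67.1 in naive libraries, and T-cell markers to 158 to 205, against 49.7 to 57.8. The T-cell sum was mostly Lck, which averaged 7.32, 7.39 and 7.55 log2 at 4 h, 12 h and 24 h, against 5.38 in naive cells. Of the 6 T-cell markers tested, 1 was higher and 4 lower at 4 h, 1 and 5 at 12 h, and 1 and 4 at 24 h. The part of these markers in the members' change was not tested.

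**Figure D1:**
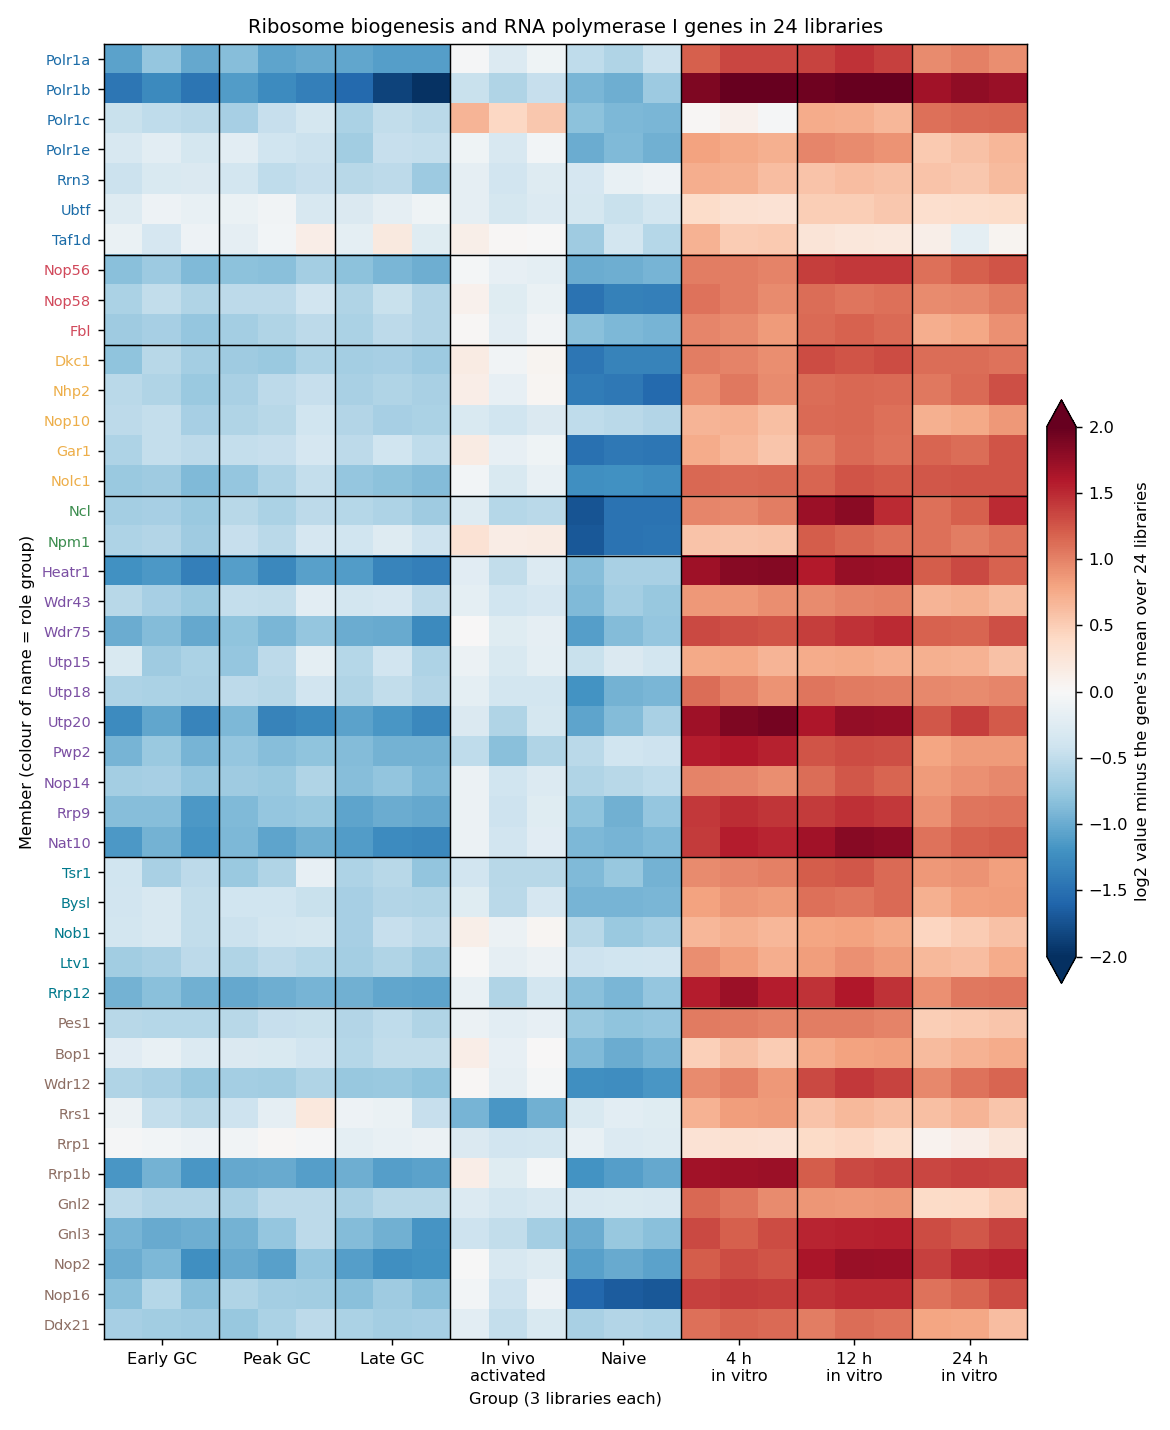
Each row is 1 of the 43 members, grouped by role, and each column 1 of the 24 libraries; colour is the deposited log2 value minus that gene's mean over the 24 libraries, in log2 units. The 9 in vitro libraries are the high block for nearly all rows, the in vivo activated libraries are next, and the naive and GC libraries are low.

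Between the in vitro times the changes were smaller. Of 43 members, 17 rose and 4 fell at 12 h against 4 h (median 0.10), where 34.6% of all tested genes rose and 27.2% fell. The 4 that fell were the initiation factor gene Taf1d (-0.35 ± 0.11, SE), the processome gene Pwp2 (-0.29 ± 0.07) and the 60S genes Rrp1b (-0.40 ± 0.08) and Gnl2 (-0.18 ± 0.05). Between 12 h and 24 h, 30 members were lower at 24 h and 1 was higher (median -0.26), where 34.8% of all genes were lower and 22.5% higher. The 1 higher member was Polr1c, a subunit shared by RNA polymerases I and III, with a log2 fold change of 0.42 ± 0.07 (SE; adjusted p = 2.17e-05). The largest fall was that of Nat10, the acetyltransferase of 18S ribosomal RNA, by 0.61 ± 0.07 on the log2 scale (adjusted p = 2.33e-07). Group means were highest at 12 h for 27 members, at 4 h for 12 and at 24 h for 4, the last being Nolc1, Nhp2, Gar1 and Polr1c. The same count was not made over all tested genes.

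In vivo activated cells also had more of most of these transcripts than naive cells, but less than in vitro activated cells. Against naive cells 36 members rose and 3 fell (median 0.60), where 39.2% of all tested genes rose and 40.1% fell. The members that fell were Rrs1, Pwp2 and Rrp1. The call of Pwp2 was lost without in vivo activated replicate 2 (adjusted p = 0.154) or naive replicate 2 (adjusted p = 0.0531). The call of Rrp1 was lost without in vivo activated replicate 2 (adjusted p = 0.1) or 3 (adjusted p = 0.0869) and without naive replicate 1 (adjusted p = 0.178), so that 1 to 3 members were called lower. Against 24 h in vitro cells, 42 members were lower and 0 higher in the in vivo activated cells (median -1.16), where 36.3% of all genes were lower and 33.6% higher. The member not called was Taf1d, which differed by 0.06 ± 0.11 (adjusted p = 0.647). The in vivo activated mean lay above the naive mean and all 3 GC means for 38 of 43 members, and for 29.1% of all tested genes. Markers of other cells differed too. Macrophage and monocyte markers summed to 40.8 to 54.2 in the in vivo activated libraries, against 64.3 to 67.1 in naive libraries. NK cell markers summed to 4.12 to 6.22, against 50.9 to 87.4, neutrophil markers to 2.55 to 3.08, against 21.0 to 29.3, and T-cell markers to 215 to 227, against 49.7 to 57.8. Lck made up most of the T-cell sum and averaged 7.69 log2, against 5.38 in naive cells. Of the 6 T-cell markers tested, 2 were higher and 2 lower than in naive cells. Against 24 h in vitro cells, 10 of 10 macrophage, 4 of 4 erythroid and 5 of 5 B-cell markers were higher in the in vivo activated cells. Their part in the members' differences was not tested.

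GC cells stood close to naive cells, and members moved in both directions. In early GC cells 22 members were higher and 10 lower than in naive cells (median 0.15), where 39.5% of all tested genes were higher and 40.2% lower. In peak GC cells 23 were higher and 8 lower (median 0.21), against 40.5% higher and 39.3% lower among all genes. In late GC cells 19 were higher and 13 lower (median 0.07), against 38.5% higher and 43.1% lower. Counts with 1 library left out stayed between 6 and 10 lower members in early GC cells, 7 and 9 in peak GC cells and 9 and 12 in late GC cells. The lowest count in early GC cells came without naive replicate 3, when Nat10 (adjusted p = 0.0564), Nop14 (adjusted p = 0.0969), Rrn3 (adjusted p = 0.216) and Utp20 (adjusted p = 0.0625) were no longer called. No member fell by 2-fold or more in any GC group, and Npm1 and Gar1 were the 2 members at least 2-fold higher in peak GC cells. In peak GC cells 17.4% of all genes were at least 2-fold higher and 17.8% at least 2-fold lower. Those shares were not counted for early and late GC cells. Against in vivo activated cells, peak GC cells had 35 members lower and 2 higher (median -0.40), where 35% of all genes were lower and 34.1% higher. The lower members were 29 to 34 with 1 library left out, 30 with no filter on low values and 28 with only the 2 groups compared. The 2 higher members were the 60S assembly genes Rrs1 (0.88 ± 0.12) and Rrp1 (0.32 ± 0.05). Markers of other cells moved with the GC comparisons. Erythroid markers summed to 145 to 376 in early GC, 81.3 to 99.7 in peak GC and 334 to 524 in late GC libraries, against 41.5 to 46.6 in naive libraries, and 4, 2 and 4 of 4 were called higher. Macrophage and monocyte markers summed to 192 to 325, 121 to 278 and 520.0 to 2191 in stage order, against 64.3 to 67.1 in naive libraries, and T-cell markers to 131 to 137, 182 to 225 and 204 to 247, against 49.7 to 57.8. The T-cell sums were mostly Lck, which averaged 6.93, 7.55 and 7.57 log2 in stage order, against 5.38 in naive cells. Among the macrophage markers Lyz2 had the highest mean at each stage, with 7.25, 6.97 and 9.54 log2, against 4.28 in naive cells. Of the 10 macrophage markers tested, 5 were higher and 0 lower than in naive cells at the early stage. These counts were 3 and 2 at the peak and 6 and 0 at the late stage. The part of these markers in the members' differences was not tested.

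**Figure D2:**
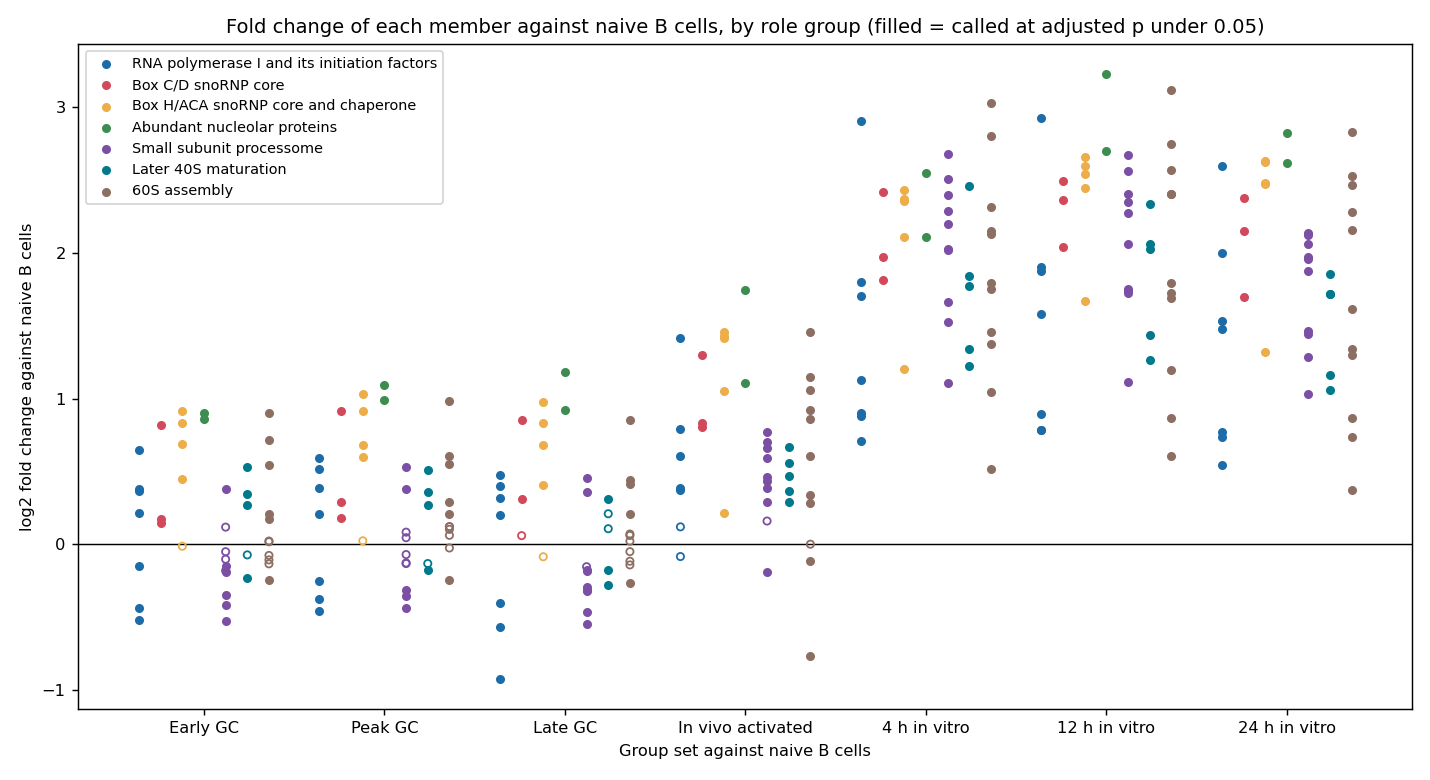
Points are log2 fold changes against naive cells for the 43 members, coloured by role, in the 7 other groups; filled points are called at an adjusted p under 0.05 and open ones are not. The in vitro folds are all above 0, the in vivo activated folds reach 1.74, and the GC folds lie on both sides of 0, between -0.92 and 1.18.

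Within the GC, the stages differed little. Between peak and early GC cells 2 members were higher and 0 lower in peak GC cells (median 0.06), where 5.77% of all tested genes were higher and 7.42% lower. They were Npm1 (0.19 ± 0.06, adjusted p = 0.0348) and Wdr43 (0.26 ± 0.07, adjusted p = 0.0154). The count was 0 without early GC replicate 3 or peak GC replicate 3, 1 without early GC replicate 2 and 4 without peak GC replicate 1. Late GC cells had 10 members lower and 0 higher than peak GC cells (median -0.11), where 20.6% of all genes were lower and 12% higher, with a median of -0.07. That count was 5 without late GC replicate 1 or 3 and 6 without peak GC replicate 3. Of the 10, the call of Polr1b held without any 1 library, and those of Nolc1, Wdr75, Nop14, Rrp9, Nat10, Bysl, Bop1, Rrp1 and Gnl3 were each lost without at least 1. Late GC cells had 5 members lower and 2 higher than early GC cells (median -0.05), where 22.1% of all genes were lower and 13% higher. The lower members were Polr1b, Polr1e, Rrn3, Bysl and Bop1, and the higher ones Npm1 and Wdr43. Without early GC replicate 2 the members lower were 3, and without early GC replicate 3 they were 8.

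Macrophage and monocyte markers, 12 of 13 in the files, and erythroid markers, 6 of 8 in the files with 2 at the floor in each GC group, had higher sums in every late GC library than in any peak GC library, by the ranges above. The erythroid sums of early and late GC libraries overlapped. Neutrophil markers, 7 of 8 in the files, summed to 78.4 to 1058 in late GC, 21.6 to 93.7 in peak GC and 23.0 to 124 in early GC libraries, which overlap, and T-cell sums overlapped between late and peak GC libraries. Those T-cell sums were mostly Lck, which averaged 7.57 log2 in late and 7.55 in peak GC cells, while Cd3d, Cd3e, Cd3g and Cd28 averaged higher in late GC cells. Of the 10 macrophage markers tested, 6 were higher in late than in peak GC cells, as were 6 of 6 neutrophil and 3 of 4 erythroid markers. Their part in the lower values of the 10 members was not tested.

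RNA polymerase I and its initiation factors rose together after in vitro activation, all 7 of 7 at 4 h, but ranged widely in size. Polr1b encodes the second-largest, catalytic subunit. Its log2 values were 4.35, 4.28 and 4.53 in naive libraries, 7.12, 7.32 and 7.43 at 4 h, 7.21, 7.38 and 7.34 at 12 h, and 6.93, 7.03 and 6.99 at 24 h. All in vitro libraries were far above the naive ones, and the 24 h libraries lay below all others of the in vitro series. The log2 fold change at 4 h was 2.90 ± 0.10 (SE), a 7.48-fold difference (adjusted p = 8.76e-18). Outside the in vitro series, Polr1b had 3.81, 3.99 and 3.80 in early GC, 4.14, 4.00 and 3.89 in peak GC, 3.70, 3.41 and 3.29 in late GC, 4.81, 4.66 and 4.80 in in vivo activated and 4.35, 4.28 and 4.53 in naive libraries. Every GC library was below every naive one, the late GC libraries were the lowest of all 24, and the in vivo activated libraries were all above the naive ones. Polr1b fell by 0.92 ± 0.10 in late GC against naive cells (adjusted p = 8.81e-09) and by 0.54 ± 0.10 in late against peak GC cells (adjusted p = 0.000245). In vivo activated cells were 4.68-fold below 24 h in vitro cells for this gene, the widest such gap of the 43 members.

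Polr1a, the largest subunit, was likewise lower in GC than in naive cells. It had 5.67, 5.97 and 5.72 in early GC, 5.89, 5.69 and 5.73 in peak GC, 5.70, 5.64 and 5.64 in late GC and 6.23, 6.13 and 6.31 in naive libraries. The naive libraries were above all 9 GC libraries, and Polr1a fell by 0.44 ± 0.08, 0.45 ± 0.08 and 0.57 ± 0.08 at the early, peak and late GC stages against naive cells (adjusted p at most 1.43e-05). After in vitro activation Polr1a had 7.93, 8.08 and 8.08 at 4 h, 8.09, 8.19 and 8.10 at 12 h and 7.68, 7.75 and 7.67 at 24 h, all above the in vivo activated values of 6.72, 6.47 and 6.66. Rrn3, the factor that brings the polymerase to the ribosomal DNA promoter, had 6.06, 6.25 and 6.30 in naive libraries, 7.13, 7.11 and 7.02 at 4 h, 6.97, 7.02 and 6.98 at 12 h and 6.96, 6.94 and 7.03 at 24 h. Its in vitro rise of 0.88 ± 0.07 at 4 h was among the smaller ones, and the 3 times touched or overlapped. In GC libraries Rrn3 had 5.96, 6.09 and 6.11 at the early, 6.03, 5.89 and 5.94 at the peak and 5.85, 5.88 and 5.68 at the late stage, and in vivo activated libraries had 6.22, 6.01 and 6.13. Late GC libraries were below all naive libraries (-0.40 ± 0.07, adjusted p = 1.12e-05), early GC libraries overlapped with them, and the in vivo activated difference was not called (adjusted p = 0.266). The early GC call of Rrn3 (adjusted p = 0.0468) was lost without early GC replicate 1 or 2 or naive replicate 2 or 3 (adjusted p = 0.0533 to 0.216).

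Ubtf, which binds along the ribosomal DNA, changed least among the 7 at 4 h. It had 8.30, 8.21 and 8.28 in naive libraries, 9.02, 8.96 and 8.94 at 4 h, 9.15, 9.14 and 9.18 at 12 h and 8.98, 9.0 and 9.02 at 24 h, a 1.64-fold difference at 4 h against naive cells. Its GC libraries, with 8.40, 8.54 and 8.50 at the early, 8.51, 8.57 and 8.32 at the peak and 8.36, 8.46 and 8.56 at the late stage, all lay above the naive ones. Polr1c and Taf1d kept their own time courses. Polr1c had 5.19, 5.11 and 5.10 in naive libraries, 6.03, 6.09 and 5.99 at 4 h, 6.74, 6.72 and 6.67 at 12 h and 7.10, 7.14 and 7.16 at 24 h. Each time lay above the one before it, and the in vivo activated libraries, with 6.69, 6.42 and 6.54, were above those of 4 h. Taf1d, a subunit of the promoter selectivity factor SL1, had 5.73, 6.07 and 5.87 in naive libraries, 7.15, 6.95 and 6.97 at 4 h, 6.71, 6.67 and 6.66 at 12 h and 6.56, 6.25 and 6.50 at 24 h. It was highest at 4 h and stepped down after it, and at 24 h its libraries overlapped with the in vivo activated values of 6.57, 6.47 and 6.44. Polr1e, another polymerase subunit, was higher than in naive cells in all 7 other groups, by 0.40 to 1.88 on the log2 scale. Its call at 12 h against 4 h (0.18 ± 0.08, adjusted p = 0.0486) was lost without any of the libraries except 4 h replicate 1 (adjusted p = 0.0575 to 0.138), and on both other scalings (adjusted p = 0.0502 and 0.0529).

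**Figure D3:**
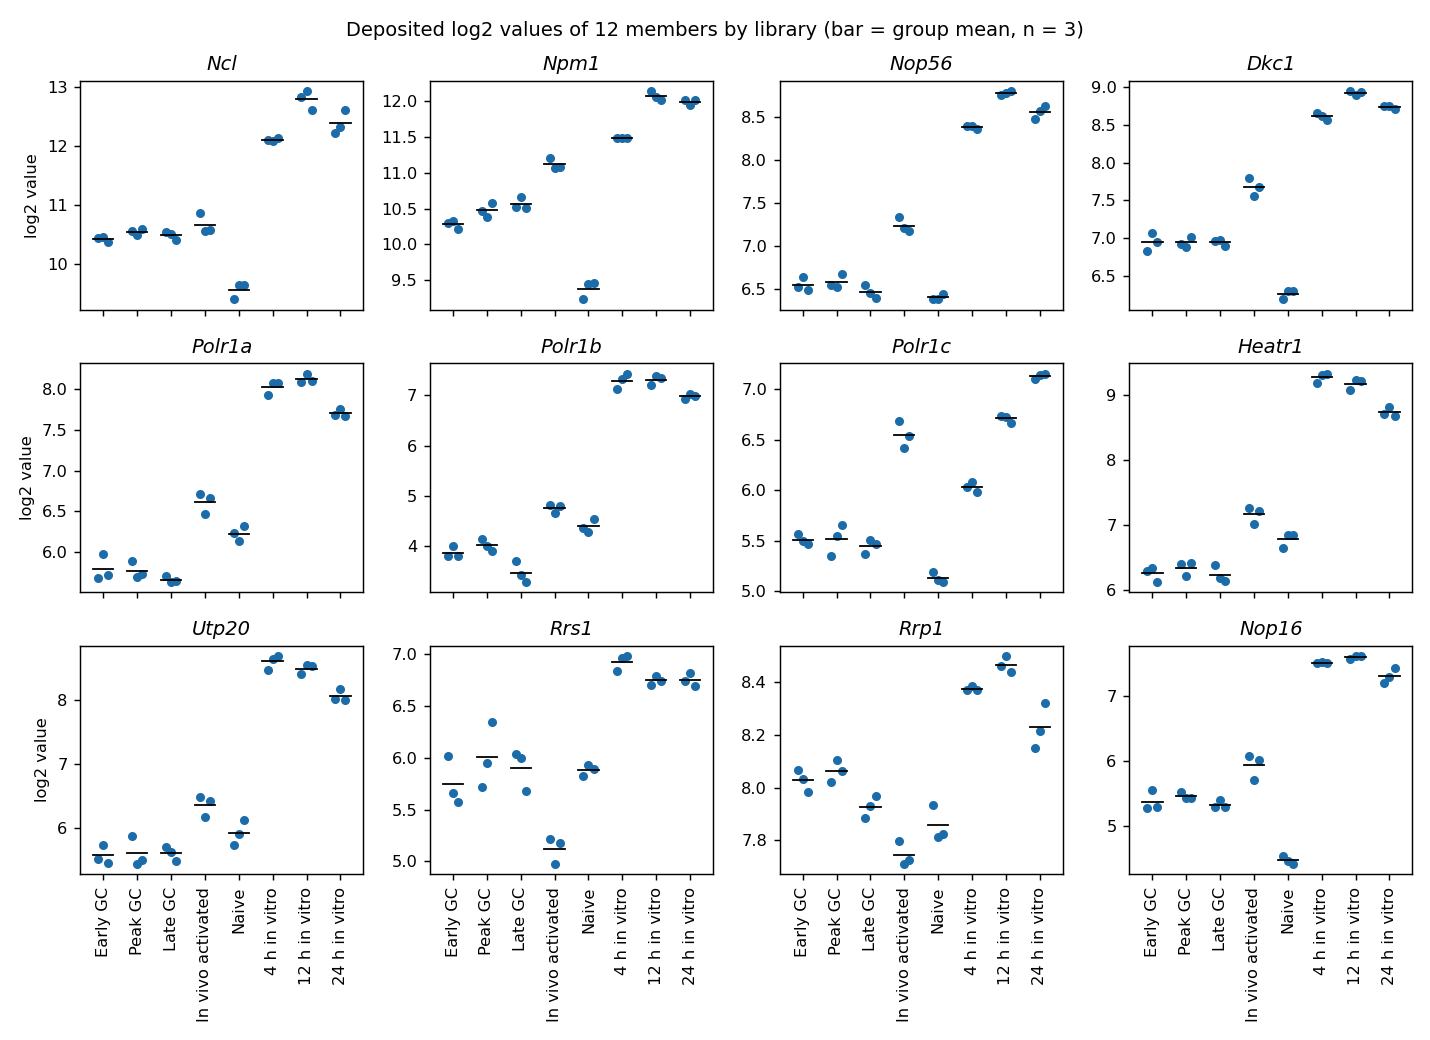
Each panel plots the deposited log2 values of 1 of 12 members in all 24 libraries, with a bar at the mean of each group of 3; the axes start at different values. Ncl and Npm1 are lowest in naive cells, the GC means of Polr1a, Polr1b, Heatr1 and Utp20 are below the naive mean, and Polr1c climbs through the in vitro times.

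Most snoRNP genes were higher in GC than in naive cells. Of the 3 box C/D genes 3, 3 and 2 were called higher at the early, peak and late stages, and of the 5 box H/ACA and chaperone genes 4 at each stage, all but Nop10. Of all tested genes, 39.5%, 40.5% and 38.5% were called higher in stage order. The early GC call of Nop56 was lost without early GC replicate 2 or naive replicate 1 or 2 (adjusted p = 0.0524 to 0.129), and its late GC difference was not called (adjusted p = 0.325). The box C/D core, Nop56, Nop58 and the methyltransferase Fbl, and the box H/ACA core, the pseudouridine synthase Dkc1 with Nhp2, Nop10 and Gar1, rose in 7 of 7 cases at 4 h, as did the chaperone Nolc1. Nop58 had 7.75, 7.89 and 7.78 in early GC, 7.85, 7.85 and 8.0 in peak GC, 7.79, 7.93 and 7.79 in late GC, 8.46, 8.14 and 8.24 in in vivo activated and 6.90, 7.04 and 7.02 in naive libraries. All 9 GC libraries were above the naive ones and below the in vivo activated ones, and the difference at the peak was 0.92 ± 0.07 (adjusted p = 1.39e-11). In the in vitro series Nop58 had 6.90, 7.04 and 7.02 in naive libraries, 9.47, 9.41 and 9.32 at 4 h, 9.50, 9.45 and 9.48 at 12 h and 9.33, 9.34 and 9.41 at 24 h, a plateau after the first rise. Fbl rose less, with 6.79, 6.74 and 6.70 in naive libraries, 8.61, 8.57 and 8.48 at 4 h, 8.77, 8.81 and 8.77 at 12 h and 8.37, 8.40 and 8.54 at 24 h. In GC libraries Fbl had 6.92, 6.97 and 6.86 at the early, 6.96, 7.03 and 7.11 at the peak and 7.01, 7.12 and 7.04 at the late stage, all above the naive values (0.18, 0.29 and 0.31 log2, SE 0.06 each). The in vivo activated Fbl values of 7.65, 7.43 and 7.57 lay between the GC and the in vitro ones.

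Among the H/ACA proteins, Nhp2 had the largest rise at 4 h and Nop10 the smallest. Nhp2 had 5.52, 5.50 and 5.37 in naive libraries, 7.85, 7.97 and 7.87 at 4 h, 8.04, 8.07 and 8.06 at 12 h and 7.98, 8.06 and 8.21 at 24 h. In GC libraries Nhp2 had 6.38, 6.32 and 6.17 at the early, 6.27, 6.40 and 6.45 at the peak and 6.28, 6.32 and 6.28 at the late stage, and in vivo activated libraries had 7.05, 6.75 and 6.96. The 4 kinds of cells thus fell into separate ranges for Nhp2, with naive cells lowest, then GC, in vivo activated and in vitro activated cells. Nop10 had 5.82, 5.87 and 5.69 in early GC, 5.74, 5.80 and 5.95 in peak GC, 5.76, 5.69 and 5.72 in late GC and 5.84, 5.81 and 5.76 in naive libraries, which overlap at the early and peak stages. None of the 3 GC differences of Nop10 was called (adjusted p of 0.846, 0.713 and 0.187 in stage order). Its in vitro values of 7.03, 7.05 and 6.95 at 4 h, 7.49, 7.50 and 7.45 at 12 h and 7.06, 7.11 and 7.21 at 24 h were all above the in vivo activated values of 6.05, 5.95 and 6.06. Gar1 and Dkc1 rose by 1.03 ± 0.07 and 0.68 ± 0.06 in peak GC against naive cells, and Nolc1 by 0.60 ± 0.06.

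Nucleolin (Ncl, chr1:86344719-86359400) and nucleophosmin (Npm1, chr11:33152287-33163206), abundant proteins of the nucleolus, had the highest levels per kilobase of exonic sequence in every group. On that scale Npm1 had 10.07 log2 at 4 h and 7.96 in naive cells, and Ncl had 8.77 and 6.22. Ncl had 9.41, 9.65 and 9.65 in naive libraries, 12.11, 12.09 and 12.14 at 4 h, 12.83, 12.93 and 12.62 at 12 h and 12.23, 12.33 and 12.62 at 24 h. The 12 h libraries were above those of 4 h, and the 24 h ones lay between, 1 of them level with the lowest of 12 h. At 12 h Ncl was 9.36-fold above naive cells (3.23 ± 0.09, adjusted p = 4.11e-18), the largest difference of any member at that time. Ncl had 10.45, 10.46 and 10.39 in early GC, 10.57, 10.50 and 10.60 in peak GC, 10.55, 10.51 and 10.41 in late GC and 10.87, 10.56 and 10.59 in in vivo activated libraries. GC and in vivo activated values overlapped, and the difference of peak GC against in vivo activated cells was not called (-0.12 ± 0.09, adjusted p = 0.269), whereas all of these libraries were above the naive ones.

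Npm1 had 10.30, 10.33 and 10.21 in early GC, 10.46, 10.38 and 10.58 in peak GC, 10.52, 10.66 and 10.51 in late GC, 11.21, 11.07 and 11.09 in in vivo activated and 9.23, 9.45 and 9.46 in naive libraries. In vivo activated cells were 3.35-fold above naive cells (1.74 ± 0.06, adjusted p = 1.03e-17), the largest difference of a member in that comparison. The late GC libraries were all above the early ones (0.28 ± 0.06, adjusted p = 0.000908), the reverse of the order of Polr1b, while late and peak libraries overlapped. In the in vitro series Npm1 had 9.23, 9.45 and 9.46 in naive libraries, 11.49, 11.48 and 11.48 at 4 h, 12.14, 12.06 and 12.02 at 12 h and 12.02, 11.95 and 12.02 at 24 h. Npm1 has processed copies in mammalian genomes, and reads of near-identical copies could be split or lost by the counting, so its level is uncertain.

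The linear values of the members give their share of the deposited total, with no correction for gene length. The 43 members summed to 4668 ± 178 in naive, 18507 ± 38.9 at 4 h, 23322.5 ± 909.9 at 12 h and 19499 ± 959.7 at 24 h (SD, n = 3), on the scale whose total is given above. The sums were 6220.4 ± 187 in early GC, 6689 ± 281 in peak GC, 6495 ± 205.5 in late GC and 8587 ± 677 in in vivo activated cells, against the naive sum above. Ncl and Npm1 alone made up 2626 ± 88.2, 2930.1 ± 153 and 2955 ± 128 at the early, peak and late GC stages, against 1429 ± 129 in naive cells. The other 41 members summed to 3594 ± 100.1, 3759 ± 154 and 3541 ± 78.8 in the 3 GC stages in that order, against 3239 ± 49.7 in naive cells. Most of the higher sum in GC cells therefore lay in these 2 genes.

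**Figure D4:**
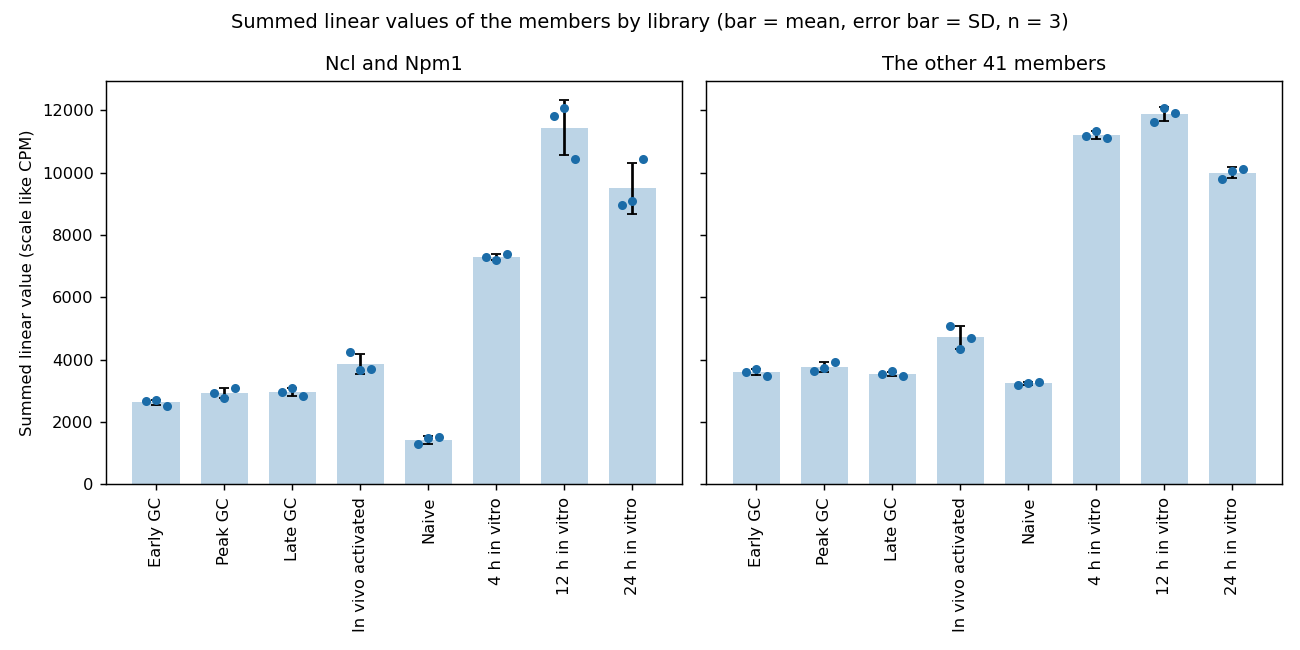
Bars are means of the summed linear values, error bars are SD and points are the 3 libraries of each group, for Ncl with Npm1 on the left and the other 41 members on the right. The 41 other members sum to 3239 to 3759 on average in naive and GC cells and to 9999 to 11872 after in vitro activation.

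The small subunit processome held 7 of the 13 members that were lower in late GC than in naive cells, where 43.1% of all tested genes were lower. Among these 7, the calls of Utp20, Rrp9 and Wdr75 were each lost without at least 1 library. Those of Rrp9 and Wdr75 were also lost with replicate number in the fit (adjusted p = 0.0604 and 0.0585). All 10 of its members rose at 4 h (median 2.12), 8 rose and 1 fell in in vivo activated cells, and in late GC cells 2 rose and 7 fell against naive cells. Heatr1, of the subcomplex that binds the precursor first, had 6.29, 6.34 and 6.13 in early GC, 6.40, 6.21 and 6.42 in peak GC, 6.39, 6.18 and 6.13 in late GC and 6.64, 6.85 and 6.84 in naive libraries. No GC library reached the lowest naive one, with falls of 0.53, 0.44 and 0.54 (SE 0.08 each) in stage order and adjusted p of at most 3.74e-05. Its in vitro values of 9.20, 9.32 and 9.34 at 4 h, 9.09, 9.23 and 9.22 at 12 h and 8.71, 8.82 and 8.68 at 24 h were all above the in vivo activated values of 7.26, 7.01 and 7.22. Pwp2, of a second subcomplex, had 5.39, 5.59 and 5.40 in early GC, 5.55, 5.48 and 5.53 in peak GC, 5.46, 5.39 and 5.38 in late GC, 5.82, 5.49 and 5.73 in in vivo activated and 5.79, 5.93 and 5.91 in naive libraries. GC libraries were all below the naive ones, with falls of 0.41, 0.35 and 0.46 (SE 0.07 each), and the in vivo activated libraries overlapped with the naive ones. At 4 h Pwp2 had 7.90, 7.93 and 7.87, at 12 h 7.58, 7.64 and 7.62 and at 24 h 7.11, 7.17 and 7.18, a decline through the time course in which no times overlapped.

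Utp20, a large scaffold protein, had the largest rise of the processome members at 4 h. It had 5.72, 5.91 and 6.13 in naive libraries, 8.47, 8.64 and 8.68 at 4 h, 8.39, 8.54 and 8.52 at 12 h and 8.02, 8.16 and 8.0 at 24 h, 6.39-fold above naive cells at 4 h (2.68 ± 0.11). In GC libraries Utp20 had 5.52, 5.74 and 5.46 at the early, 5.88, 5.44 and 5.50 at the peak and 5.70, 5.62 and 5.49 at the late stage, against 6.49, 6.17 and 6.42 in in vivo activated libraries. Early and peak libraries overlapped with the naive ones, and the calls of a fall by 0.35, 0.32 and 0.32 (SE 0.11 each) were each lost without naive replicate 3 (adjusted p of 0.0625, 0.105 and 0.103 in stage order). The peak call was also lost without peak GC replicate 2 or 3 (adjusted p of 0.0887 and 0.0639), and the late call without late GC replicate 3 (adjusted p = 0.0645). Utp15 rose least. It had 6.06, 6.21 and 6.14 in naive libraries, 7.26, 7.28 and 7.19 at 4 h, 7.25, 7.27 and 7.23 at 12 h and 7.21, 7.19 and 7.09 at 24 h. Its GC values of 6.20, 5.79 and 5.87, of 5.73, 5.97 and 6.30 and of 5.93, 6.12 and 5.89 in stage order overlapped with the naive values, no GC difference was called, and the in vivo activated values of 6.38, 6.20 and 6.30 were not called either (adjusted p = 0.17).

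Nat10, Nop14, Rrp9 and Wdr75 shared a late GC value below that of naive cells. Nat10 had 5.26, 5.45 and 5.22 in early GC, 5.50, 5.35 and 5.44 in peak GC, 5.29, 5.15 and 5.12 in late GC and 5.51, 5.46 and 5.52 in naive libraries. The late GC libraries were all below the peak and the naive ones, by 0.24 ± 0.07 against peak cells and 0.31 ± 0.07 against naive cells (adjusted p = 0.0128 and 0.000389). The peak GC difference from naive cells was not called (adjusted p = 0.379), and the early one (adjusted p = 0.0205) was lost without early GC replicate 1 or 3 or naive replicate 3 (adjusted p = 0.0564 to 0.103). Nat10 reached 7.80, 7.96 and 7.92 at 4 h, 8.08, 8.23 and 8.20 at 12 h and 7.48, 7.58 and 7.62 at 24 h, and 6.29, 6.01 and 6.17 in in vivo activated libraries, all above every naive library. Nop14, a core component, had 5.68, 5.70 and 5.58 in early GC, 5.65, 5.62 and 5.76 in peak GC, 5.51, 5.57 and 5.46 in late GC and 5.76, 5.81 and 5.85 in naive libraries. Its late GC fall against naive cells was 0.30 ± 0.06 (adjusted p = 0.000141), with no overlap. Nop14 had 7.36, 7.34 and 7.29 at 4 h, 7.47, 7.61 and 7.52 at 12 h and 7.21, 7.27 and 7.33 at 24 h, and 6.24, 5.96 and 6.08 in in vivo activated libraries.

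Rrp9, a protein of the U3 snoRNP, had 4.78, 4.78 and 4.48 in early GC, 4.74, 4.85 and 4.88 in peak GC, 4.57, 4.63 and 4.60 in late GC and 4.83, 4.66 and 4.85 in naive libraries. The late GC libraries were just below the lowest naive library, a difference of -0.18 ± 0.08 (adjusted p = 0.0443) whose call was lost without any of the libraries except naive replicate 2 (adjusted p = 0.0564 to 0.153). Rrp9 had 7.04, 7.10 and 7.06 at 4 h, 7.03, 7.09 and 7.05 at 12 h and 6.54, 6.71 and 6.72 at 24 h, and 5.51, 5.21 and 5.39 in in vivo activated libraries, all above the naive ones. Wdr75 had 5.27, 5.41 and 5.24 in early GC, 5.47, 5.36 and 5.49 in peak GC, 5.27, 5.25 and 5.0 in late GC and 5.17, 5.41 and 5.49 in naive libraries. Its groups overlapped, and the late GC call (-0.18 ± 0.08, adjusted p = 0.0438) was lost without late GC replicate 3 or naive replicate 2 or 3 (adjusted p = 0.124 to 0.302). In vitro Wdr75 had 7.59, 7.55 and 7.52 at 4 h, 7.65, 7.71 and 7.76 at 12 h and 7.44, 7.43 and 7.55 at 24 h, and in vivo activated libraries had 6.27, 6.02 and 6.09. Wdr43 and Utp18 were the 2 processome members higher than naive cells at the peak, by 0.38 ± 0.07 and 0.53 ± 0.07.

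The 5 members that act later on the 40S subunit, Tsr1, Bysl, Nob1, Ltv1 and Rrp12, all rose at the 3 in vitro times and in in vivo activated cells. Rrp12, an export factor in yeast, had 5.45, 5.39 and 5.52 in naive libraries, 7.86, 8.0 and 7.87 at 4 h, 7.73, 7.90 and 7.74 at 12 h and 7.21, 7.35 and 7.36 at 24 h. Its 24 h libraries were below all others of the in vitro series (-0.48 ± 0.08 against 12 h, adjusted p = 2.06e-05). In GC libraries Rrp12 had 5.34, 5.46 and 5.34 at the early, 5.28, 5.32 and 5.37 at the peak and 5.34, 5.25 and 5.24 at the late stage, and in vivo activated libraries had 6.14, 5.70 and 5.92. The late GC difference from naive cells (-0.18 ± 0.08, adjusted p = 0.0461) was lost without late GC replicate 2 or 3 or naive replicate 1 or 3 (adjusted p = 0.0802 to 0.151). Ltv1 had 5.97, 6.03 and 6.14 in early GC, 6.06, 6.14 and 6.10 in peak GC, 5.99, 6.06 and 5.95 in late GC and 6.26, 6.28 and 6.29 in naive libraries. All GC libraries were below the tight naive ones, and Ltv1 fell by 0.23, 0.17 and 0.28 (SE 0.06 each) in stage order. Ltv1 had 7.59, 7.51 and 7.39 at 4 h, 7.51, 7.58 and 7.53 at 12 h, 7.32, 7.28 and 7.41 at 24 h and 6.66, 6.49 and 6.56 in in vivo activated libraries.

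Bysl rose by 0.51 ± 0.06 in peak GC against naive cells, Tsr1, a GTPase-like factor, by 0.36 ± 0.10 and Nob1, the nuclease that trims the end of 18S RNA, by 0.27 ± 0.07. Tsr1 shares 1240 exonic bases (32.3% of its exonic length) with Srr on the opposite strand, and Bysl shares 361 (9.4%) with Ccnd3. The library kit keeps the strand, but the strand setting of the counting is not given in the sources used here. The values of Tsr1 and Bysl may therefore include reads of those neighbours. The highest value of Srr was 3.31 log2, below every Tsr1 value, and that of Ccnd3 was 8.16, above every Bysl value.

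Factors of the 60S subunit held both extremes of the response at 4 h. Nop16 (chr13:54584185-54590090), a nucleolar assembly protein, had 4.55, 4.46 and 4.42 in naive libraries, 7.50, 7.53 and 7.50 at 4 h, 7.57, 7.61 and 7.61 at 12 h and 7.21, 7.29 and 7.44 at 24 h. In vitro and naive libraries were well apart, by 8.17-fold at 4 h (3.03 ± 0.08, adjusted p = 1.76e-19). Nop16 had 5.28, 5.55 and 5.29 in early GC, 5.53, 5.44 and 5.43 in peak GC, 5.29, 5.41 and 5.29 in late GC and 6.08, 5.71 and 6.02 in in vivo activated libraries, all above the naive ones. Rrp1 had 7.94, 7.81 and 7.82 in naive libraries, 8.37, 8.38 and 8.37 at 4 h, 8.46, 8.50 and 8.44 at 12 h and 8.15, 8.21 and 8.32 at 24 h, the smallest difference of any member at each time (1.43-fold at 4 h). In GC libraries Rrp1 had 8.07, 8.04 and 7.99 at the early, 8.02, 8.10 and 8.06 at the peak and 7.88, 7.93 and 7.97 at the late stage, and the in vivo activated values were 7.80, 7.71 and 7.72. Early and peak GC libraries were above the naive ones, late GC libraries overlapped with them, and the in vivo activated ones lay below them all. Its paralog Rrp1b behaved differently: it was 6.96-fold above naive cells at 4 h, 2.80 ± 0.08 on the log2 scale, and no GC difference from naive cells was called (adjusted p = 0.457 to 0.836).

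Rrs1 (chr1:9545408-9547455), which helps to place the 5S RNA in the 60S particle in yeast, had its lowest values in in vivo activated cells, as did Rrp1. It had 5.21, 4.98 and 5.18 there, 6.02, 5.66 and 5.58 in early GC, 5.72, 5.95 and 6.34 in peak GC, 6.04, 6.0 and 5.68 in late GC and 5.83, 5.93 and 5.89 in naive libraries. The in vivo activated libraries were below all 21 others, a fall by 0.76 ± 0.12 against naive cells (adjusted p = 8.77e-06), while GC and naive libraries overlapped and no GC difference from naive cells was called (adjusted p = 0.328 to 0.876). The spread within the GC groups was the widest of the list, with an SD of 0.32 at the peak. In vitro Rrs1 had 6.84, 6.97 and 6.98 at 4 h, 6.71, 6.79 and 6.75 at 12 h and 6.74, 6.82 and 6.69 at 24 h. Gnl2, a nucleolar GTPase, had 6.40, 6.34 and 6.35 in early GC, 6.27, 6.41 and 6.41 in peak GC, 6.28, 6.37 and 6.36 in late GC, 6.66, 6.56 and 6.61 in in vivo activated and 6.60, 6.62 and 6.60 in naive libraries. GC libraries were all below the naive ones (-0.24, -0.24 and -0.27, SE 0.05 each), and the difference of in vivo activated from naive cells was not called (0.00 ± 0.05, adjusted p = 0.987). Gnl2 declined through the in vitro times, with 8.07, 8.0 and 7.87 at 4 h, 7.80, 7.80 and 7.81 at 12 h and 7.32, 7.32 and 7.40 at 24 h, without overlap.

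Pes1, Bop1 and Wdr12, which form a complex needed for the maturation of 60S RNAs, were higher than in naive cells in all 7 other groups, by 0.21 to 0.60 log2 in peak and late GC cells and by 1.30 to 2.57 in vitro. Bop1 fell through the GC stages, by 0.30 ± 0.06 in late against early cells (adjusted p = 0.000477). Nop2, a methyltransferase of the large ribosomal RNA, the GTPase Gnl3 and the helicase Ddx21 rose by 2.32 ± 0.08, 2.13 ± 0.09 and 1.75 ± 0.06 at 4 h, and none of their GC differences from naive cells was called.

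Other genes of the pathway were read from lists by role, which were also drawn up with earlier results known, so their counts are no independent support. Against naive cells, 38.9% of all tested genes rose and 39.1% fell at 4 h. These shares were 39.2% and 40.1% in in vivo activated cells, and 40.5% and 39.3% in peak GC cells. Of 30 other small subunit processome genes, 30 rose at 4 h, 25 rose and 1 fell in in vivo activated cells, and 21 rose and 3 fell in peak GC cells against naive cells, with medians of 1.37, 0.59 and 0.36. At 4 h Noc4l rose by 2.15 ± 0.05 (7.32 ± 0.03 against 5.17 ± 0.02 log2, mean and SD) and Rcl1 by 2.23 ± 0.06 (7.30 ± 0.08 against 5.07 ± 0.03). Emg1, a methyltransferase gene, rose in peak GC cells by 1.0 ± 0.05 and Noc4l by 0.62 ± 0.05, while Pdcd11 fell by 0.90 ± 0.08 (5.60 ± 0.11 against 6.50 ± 0.09) and Nol6 by 0.29 ± 0.06. Of 34 other 60S assembly genes, 32 rose and 1 fell at 4 h, 27 rose and 3 fell in in vivo activated cells, and 18 rose and 6 fell in peak GC cells, with medians of 1.5, 0.48 and 0.18. The methyltransferase gene Ftsj3 rose by 2.31 ± 0.06 and Ebna1bp2 by 2.32 ± 0.06 at 4 h, while Nsa2 fell by 0.19 ± 0.06. In peak GC cells Nip7 rose by 1.17 ± 0.07 and Wdr18 by 0.91 ± 0.06. The gene of the giant assembly ATPase Mdn1 fell by 1.91 ± 0.16 there (5.80 ± 0.40 against 7.71 ± 0.15 in naive cells, adjusted p = 6.01e-10), and Ddx24 fell by 0.55 ± 0.05.

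Of 14 other RNA polymerase I genes, 12 rose and 1 fell at 4 h, 7 rose and 4 fell in in vivo activated cells, and 5 rose and 1 fell in peak GC cells (medians 0.74, 0.15 and 0.10). Of all tested genes, 38.9%, 39.2% and 40.5% rose and 39.1%, 40.1% and 39.3% fell in these comparisons, in that order. Polr2h, a subunit shared by all 3 nuclear polymerases, rose by 2.0 ± 0.07 at 4 h and by 1.2 ± 0.07 in peak GC cells, and the polymerase I subunit gene Cd3eap rose by 2.25 ± 0.09 at 4 h. Another polymerase I subunit gene, Znrd1, fell by 0.54 ± 0.07 at 4 h. In peak GC cells the shared subunit gene Polr1d rose by 0.82 ± 0.06 and the SL1 subunit gene Taf1c fell by 0.63 ± 0.08. Of 13 genes of nuclear export and cytoplasmic maturation, 11 rose and 1 fell at 4 h, 9 rose and 2 fell in in vivo activated cells, and 6 rose and 2 fell in peak GC cells (medians 0.73, 0.21 and 0.20). Pno1 rose by 2.35 ± 0.07 and Eif6, which keeps the subunits apart, by 1.72 ± 0.06 at 4 h, while Zfp622 fell by 1.0 ± 0.07. In peak GC cells Pno1 rose by 0.95 ± 0.07 and Eif6 by 0.70 ± 0.06, and Eftud1 and Zfp622 fell by 0.30 ± 0.08 and 0.28 ± 0.07.

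RNA polymerase III, which makes the 5S RNA and transfer RNAs, was mixed. Of 21 of its genes, 14 rose and 4 fell at 4 h, 10 rose and 9 fell in in vivo activated cells, and 9 rose and 8 fell in peak GC cells, with medians of 0.48, 0.00 and -0.05. Of all tested genes, 38.9%, 39.2% and 40.5% rose and 39.1%, 40.1% and 39.3% fell in these comparisons. The peak GC counts were close to those shares. Polr3g and Polr3gl, which encode alternative forms of 1 subunit, moved in opposite directions at 4 h. Polr3g had 6.28 ± 0.04 at 4 h against 3.86 ± 0.18 in naive cells (2.42 ± 0.10, adjusted p = 2.68e-16), and Polr3gl had 2.52 ± 0.0089 against 4.84 ± 0.17 (-2.32 ± 0.10, adjusted p = 9.43e-16). Polr3e rose by 1.72 ± 0.07 and Gtf3c1 fell by 0.77 ± 0.08 at 4 h. In peak GC cells Polr3k rose by 1.61 ± 0.09 and Crcp by 1.13 ± 0.07, while Polr3gl fell by 0.91 ± 0.10 and Polr3a by 0.59 ± 0.08. Between late and peak GC cells, genes that fell numbered 6 of 14 for other polymerase I genes, 10 of 30 for other processome genes, 10 of 34 for other 60S genes, 3 of 13 for export and cytoplasmic genes and 4 of 21 for polymerase III genes, where 20.6% of all tested genes fell. In that comparison 1 gene rose, in the 60S list.

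In all, 8 members carry small nucleolar RNA (snoRNA) genes within their bounds in the GENCODE annotation of mm10: Taf1d holds 8, Nop56 5, Nop58 4, Ncl, Wdr43 and Gnl3 3 each, Tsr1 2 and Dkc1 1, which makes 29. Among 10837 tested protein-coding genes, 183 (1.69%) hold one. The libraries were made for mRNA, so the snoRNAs themselves are not analysed here. Of 9 tested noncoding snoRNA host genes, 8 rose and 1 fell at 4 h, 7 rose and 0 fell in in vivo activated cells, 4 rose and 1 fell in peak GC cells, and 0 changed between late and peak GC cells, with medians of 1.17, 1.04, 0.19 and -0.09. Of all tested genes, 38.9%, 39.2%, 40.5% and 12% rose and 39.1%, 40.1%, 39.3% and 20.6% fell in these comparisons, in that order. Snhg4 rose by 2.43 ± 0.10 and Snhg1 by 1.23 ± 0.08 at 4 h, and Snhg8 fell by 0.34 ± 0.09. At the GC peak Snhg5 rose by 2.18 ± 0.11 and Snhg1 by 0.59 ± 0.08, and Snhg8 fell by 0.22 ± 0.09. The members lie on 18 chromosomes.

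Likeness among members was measured as the correlation of a gene's 8 group means with the mean of the other 42 members. It ranged from 0.76 to 0.995 with a median of 0.984, and 37 of 43 were at 0.95 or more. These points share libraries and are dominated by the in vitro groups, and the values are a description. The 4 members under 0.9 were Taf1d (0.76), Rrs1 (0.791), Polr1c (0.797) and Rrp1 (0.841). The range of a member's group means spanned 0.72 log2 for Rrp1 to 3.85 for Polr1b, with a median of 2.36, while the SD within a group of 3 had a median of 0.071.

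Myc RNA took another course. Its log2 fold change against naive cells was 0.08 ± 0.10 at 4 h (adjusted p = 0.481), -0.70 ± 0.10 at 12 h and -1.24 ± 0.10 at 24 h, times at which all 43 members were higher. Against naive cells Myc fell by 2.63 ± 0.10 in peak GC cells (adjusted p = 5.73e-17) and differed by -0.17 ± 0.10 in in vivo activated cells (adjusted p = 0.113), where 36 members were higher. MYC protein was not measured, and the part of Myc in the members' changes was not tested.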

How the data were processed

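Per the labels' protocols, sorted B cells were lysed for RNA, libraries were made with a stranded mRNA kit, and paired reads were sequenced. The build mm10 and the tools STAR 2.6.0c, Subread 1.6.2 with featureCounts, cutadapt 1.8.3, limma and FastQC 0.11.5 are named, with no roles, per the submitters' processing notes. The options are not given in the sources used here. The authors deposited log2 values per gene, which the values show to be near CPM in scale. All libraries share nearly 1 distribution (the value at rank 1000 varied by 0.03 log2), and gene means over each replicate number are equal within 0.00088 log2, as after a removal of differences between replicate numbers, a step not given in the sources used here. The residual degrees of freedom used here (16) may therefore be too many. Depth is unknown.

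Genes with a log2 value of at least 0 in at least 3 libraries were tested (11885 of 23420). The test was limma 3.58.1 in R 4.3.3, with a mean for each group, all 24 libraries in the fit, trended and robust moderation, two-sided, with Benjamini-Hochberg adjustment over all tested genes in each of 14 comparisons. The fit was tested on simulated data. A positive log2 fold change means higher in the activated, GC or later group. Values under -5 log2 are called the floor. Other settings changed the filter, pseudocount, scaling, moderation, samples and replicate block, and left out each library in turn. Figures were drawn with matplotlib 3.10.9 and tables made with pandas 2.3.3 and numpy 2.4.6 in Python 3.11.15.

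The members, role lists, pathway lists and marker lists were chosen with earlier results of these data known. Members with values in every library are those with the largest and smallest change at 4 h in each role and those called lower than naive in any comparison, and Polr1c and Taf1d were added after their values were seen. From each pathway list, the genes with the 2 smallest p in each direction at 4 h and in peak GC cells are named. Coordinates are those of GENCODE vM21 on mm10 and promoter windows those of RefSeq on GRCm38.p6. Members that share reads with overlapping genes or copies are uncertain. Some genes of the marker and pathway lists are not reported here, and the sums, counts and medians of those lists leave them out.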

Additional observations from a re-analysis of the deposited data

How the results depend on the processing

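Each comparison's counts and the 413 called fold changes of members were recomputed under every other setting; none reversed. Calls lost were 20 with no filter on low values, 0 with a filter at 10, 0 with a pseudocount of 1, 1 with libraries centred on their median, 2 with libraries scaled to equal sums, 7 without trend and robust moderation and 28 with only the 2 groups compared. The 2 scalings moved libraries by at most 0.019 and 0.025 log2. Leaving out 1 library lost 116 of 2478 recomputed calls, from 39 fold changes. Whether replicate numbers pair the libraries cannot be told from the deposited values, since gene means are already equal over replicate numbers, which keeps correlations of same-numbered libraries low. With a replicate block 10 calls were lost. The members called between peak and early GC cells were then 1, and those lower in late GC than in naive cells 10, against 13 without the block, as Wdr75 (adjusted p = 0.0585), Rrp9 (adjusted p = 0.0604) and Rrp12 (adjusted p = 0.0616) lost their calls.

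Total counts of calls moved by more than 1.5 times in comparisons within the GC. Of counts in 1 direction against naive cells, members lower in in vivo activated cells were 1 without in vivo activated replicate 2, against 3, and those lower in early GC cells 6 without naive replicate 3, against 10. Peak against early GC cells had 2 members and 1568 genes called. The members were 0 with no filter, 1 without trend and robust moderation, 0 with only the 2 groups compared and 0 to 4 with 1 library left out, and the genes 610 with only the 2 groups compared and 1034 to 1549 with 1 library left out. Late against peak GC cells had 10 members and 3877 genes called. With only the 2 groups compared they were 1 and 1207, with a filter at 10 the genes were 2523, and with 1 library left out the members were 5 to 10 and the genes 3020 to 4091. Late against early GC cells had 7 members and 4169 genes called, and 4 and 2381 with only the 2 groups compared. The cause was not tested, except that fewer libraries or genes enter these fits. Depth is unknown, and 3 libraries per group limit the precision of small differences.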
